A study of Drosophila melanogaster with 2 samples.

Results

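Of the 5925 autosomal regions called for a tagged form of the nuclear receptor Hr39 in white prepupae of *Drosophila melanogaster*, 885 (14.9%) lay between genes at a moderate distance from the nearest start of transcription. A region was counted when its summit was over 1000 bp and at most 10000 bp from the transcription start site (TSS) of any annotated gene and outside every annotated gene. Position alone chose the 885 peaks among the 5925 autosomal regions, and no measured level entered that rule. The regions came from the reproducible ("optimal") set of the study. It held the 7444 regions of highest signal in a larger pooled list, so signal decided which candidates could be counted. Of the 7444, 1519 lay on the X chromosome and the mitochondrial genome and were not counted here. The 885 summits lay 1015 to 9965 bp from a TSS, with a median of 3592 bp. The remaining autosomal peaks were 2836 promoter peaks (within 1000 bp of a TSS), 1596 intronic peaks at the same 1 to 10 kb, 536 distal peaks over 10 kb away and 72 peaks in exons.

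The study measured occupancy by chromatin immunoprecipitation and sequencing with an antibody against GFP. The animals were whole prepupae of the strain Hr39-RC-GFP, males and females pooled and of unknown age, which stably express Hr39 with a C-terminal eGFP. The samples form 1 group of 2 biological replicates, labelled 1 and 3, and neither a second condition nor animals lacking the fusion were analysed here. Occupancy by Hr39 and signal of other origin therefore cannot be told apart at any single peak. Peaks of whole animals mix all tissues, so occupancy in a few cells and weak occupancy in many cannot be told apart. The replicate lists were compared by taking the 5925 autosomal regions of highest signal in each and applying the same rule of position, which gave 918 intergenic peaks in replicate 1 and 842 in replicate 3. With 2 samples of 1 group no test between conditions is possible, and the spread between the replicates (SD, n = 2) stands beside the values. The deposited lists give no read counts, so sequencing depth is unknown. All coordinates are on dm6.

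Hr39 belongs to the NR5 family of nuclear receptors, with Ftz-f1 as its closest relative in flies. These receptors bind DNA as monomers, at an AGGTCA half-site extended by bases on its 5′ side. White prepupae stand at the onset of metamorphosis, which a rise of the steroid hormone ecdysone at the end of larval life sets off. Sequences between genes and outside promoters often hold enhancers, short clusters of binding sites that act on a TSS at a distance.

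The windows centred on the summits, with 50 bases on each side, of the 6 strongest of the 885 peaks are shown because they carry the base composition and the motif result described further on. They are named by the nearest protein-coding gene, were read from the plus strand of the RefSeq sequence of dm6, and run 5′ to 3′. Capitals mark matches, on either strand, to 11 of the 15 motifs searched for: the NR5, AGGTCA, DREF, GAGA, CA repeat, Zelda, AP-1, Grainyhead, GATA, ETS and E-box elements. Matches to the A and T stretch, the homeodomain core, the BEAF half-site and the ecdysone element IR1, all described further on, are not marked. The first 4 of these windows hold at least 1 unmarked match to the first 3 of those motifs. In these 6 windows the capitals are a GATA element (AGATAA), bound by GATA factors, from base 1 of the CG43245 window, and an AP-1 element (TGANTCA), bound by Fos and Jun, from base 56 of the kay window. The positions are chr3L:10776516-10776616 for CG43245, chr2L:2202351-2202451 for CG31668 and chr3R:29763306-29763406 for kay. The next are chr2L:2199306-2199406 for COX7AL2, chr3L:802840-802940 for CG13898 and chr3L:11318918-11319018 for CG6168.
CG43245: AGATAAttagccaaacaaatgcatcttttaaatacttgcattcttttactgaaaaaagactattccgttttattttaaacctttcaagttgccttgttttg
CG31668: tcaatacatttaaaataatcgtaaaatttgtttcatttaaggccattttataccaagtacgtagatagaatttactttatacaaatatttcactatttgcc
kay: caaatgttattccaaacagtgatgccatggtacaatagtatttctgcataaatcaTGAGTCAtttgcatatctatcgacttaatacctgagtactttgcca
COX7AL2: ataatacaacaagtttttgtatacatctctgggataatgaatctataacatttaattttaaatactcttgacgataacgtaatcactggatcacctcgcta
CG13898: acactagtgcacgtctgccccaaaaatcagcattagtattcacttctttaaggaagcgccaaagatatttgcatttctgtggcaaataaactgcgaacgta
CG6168: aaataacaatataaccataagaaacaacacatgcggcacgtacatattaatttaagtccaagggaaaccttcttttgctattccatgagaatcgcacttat

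The next 3 windows show what the AGGTCA half-site looked like where it was present. They are the strongest 3 of the 13 peaks with it, and the capitals mark TGACCT, its reverse complement on the plus strand. They lie at chr3R:21838561-21838661 near Gr93b, a gustatory receptor gene, at chr3L:14111579-14111679 near Sox21a, a Sox-family transcription factor gene, and at chr3L:819644-819744 near Sf3b3, a splicing factor gene. It starts at base 73 of the Gr93b window, base 2 of the Sox21a window and base 79 of the Sf3b3 window, where base 51 is the summit.
Gr93b: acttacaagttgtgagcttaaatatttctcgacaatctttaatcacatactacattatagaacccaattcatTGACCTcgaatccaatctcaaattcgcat
Sox21a: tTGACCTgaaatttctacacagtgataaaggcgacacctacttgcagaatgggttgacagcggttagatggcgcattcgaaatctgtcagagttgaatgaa
Sf3b3: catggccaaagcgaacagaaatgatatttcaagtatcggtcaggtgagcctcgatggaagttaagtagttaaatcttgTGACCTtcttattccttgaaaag

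A final set of 3 windows comes from genes of Notch signalling, cell death and the ecdysone response, and none of the 11 marked motifs occurred in them. They were chosen after their values were seen. They lie at chr3R:26009045-26009145 near E(spl)malpha-BFM, a Notch target gene, at chr3L:18190614-18190714 near hid, an inducer of apoptosis, and at chr3R:21941508-21941608 near Eip93F, an ecdysone-induced transcription factor of metamorphosis.
E(spl)malpha-BFM: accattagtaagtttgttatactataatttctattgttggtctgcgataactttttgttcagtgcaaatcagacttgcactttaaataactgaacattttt
hid: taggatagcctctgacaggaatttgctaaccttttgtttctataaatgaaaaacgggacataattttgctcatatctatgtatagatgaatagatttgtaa
Eip93F: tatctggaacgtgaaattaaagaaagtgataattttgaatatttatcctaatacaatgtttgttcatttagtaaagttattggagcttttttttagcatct

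The intergenic peaks were spread over 17.6 Mb of eligible autosomal sequence, which is every position that meets the rule. Their density was 50.2 summits per Mb in the optimal set, with 52.1 per Mb in replicate 1 and 47.8 per Mb in replicate 3 (49.9 ± 3.05, SD, n = 2). Intronic sequence at the same distances held 64.0 per Mb (64.4 in replicate 1 and 60.3 in replicate 3). Promoter sequence held 107.6 per Mb and all autosomal sequence 53.8 per Mb. Distal sequence, over 10 kb from a TSS and counted both inside and outside genes, held 20.3 per Mb. The intergenic and intronic densities did not overlap between the replicates. Within 1 to 2 kb of a TSS the intergenic density was 60.1 per Mb (63.2 and 59.6 in replicates 1 and 3). In the 8 further bins of 1 kb it ranged between 42.3 and 53.1 per Mb, with no steady decline. Intronic sequence held 83.2 per Mb in its first bin, and from 8 to 9 kb the order of the classes was turned round, with 53.1 per Mb for the 53 intergenic peaks and 36.3 per Mb for the 54 intronic peaks.

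**Figure D1:**
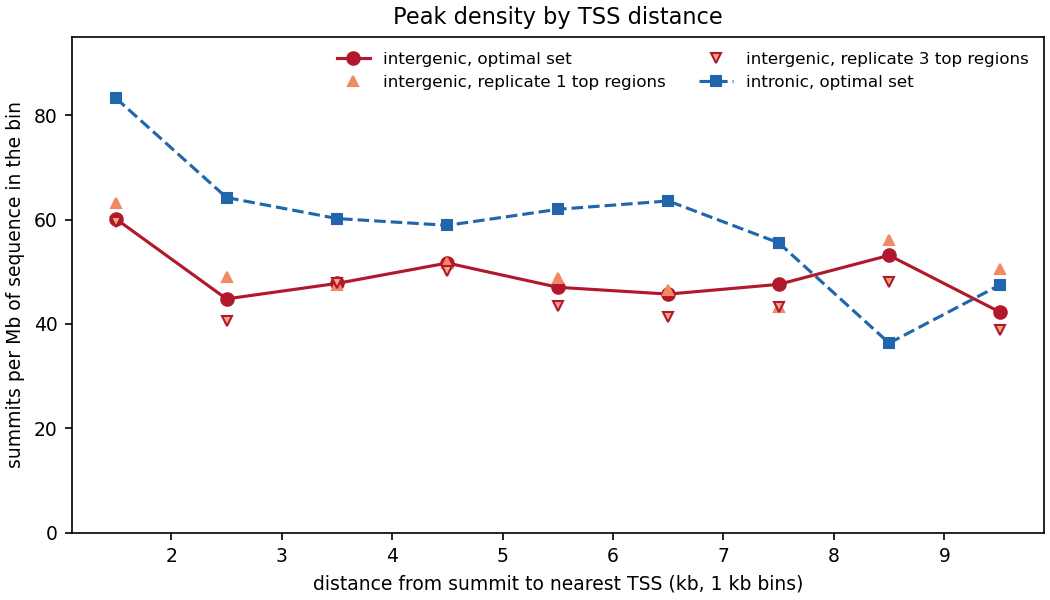
Summits per Mb of sequence (vertical axis) in bins of 1 kb of distance to the nearest TSS (horizontal axis, kb), for intergenic peaks of the optimal set (red circles), the same rule in each replicate (triangles) and intronic peaks (blue squares). The intergenic line is highest in the first bin, at 60.1 per Mb, and lies between 42.3 and 53.1 per Mb beyond it.

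Peaks at the limits of the rule had ordinary signals. Just inside 1000 bp lay peaks 1015 bp from CG34289 and 1016 bp from CG2772, with signals of 155 and 374, while intergenic peaks just outside, 990 bp from asRNA:CR46264 and 996 bp from CG14537, had signals of 395 and 221. At the far limit, peaks 9925 bp from tll and 9965 bp from lncRNA:CR45304 had signals of 311 and 209. Those just beyond it, 10027 bp from scyl and 10066 bp from lncRNA:CR43785, had 108 and 250.

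The arms of the chromosomes differed in density. The left arm of chromosome 3 held 294 of the 885 peaks and 64.6 per Mb of eligible sequence, with 68.3 in replicate 1 and 62.4 in replicate 3. The other large arms held 40.6 to 47.5 per Mb, below both replicate values of 3L, and the small chromosome 4 held 3 peaks. Over all classes 3L had 56.7 peaks per Mb, against 49.8 to 56.1 on the other large arms.

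Support in the replicate lists was about as common as for other optimal peaks. The optimal set was itself chosen for reproducibility, and the replicate candidate lists hold 30000 regions each, background regions included, so high shares follow from the choice and are read only against those of all peaks. A candidate summit of replicate 1 lay within 100 bp of 861 of the 885 peaks (97.3%), against 94.6% of all autosomal optimal peaks. For replicate 3 the count was 866 (97.9%), against 98.2%. Both replicates had one at 843 peaks (95.3%), against 93.0% of all. Across those 843 peaks the ranks of the 2 replicates had a Spearman correlation of 0.86, against 0.88 across 5509 autosomal peaks of all classes; peaks of one library share its depth and background, so these are descriptions. Within the 5925 highest-signal regions of each replicate, both had a summit at 79.7% of the intergenic peaks, against 78.6% of all autosomal peaks. In the full lists, only replicate 1 supported 18 peaks, only replicate 3 supported 23, and 1 had no summit of either within 100 bp.

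The authors' signal, used here only to rank regions within a list, ran between 98.5 and 3117 over the 885 peaks, with a median of 185. Their median rank stood at 55.3% of the way down the autosomal list (56.5% and 55.1% in replicates 1 and 3), against 53.02% for intronic peaks and 43.9% for promoter peaks. The first 592 places of the autosomal list held 56 of them, or 6.33%, against 13.8% of promoter peaks. The larger pooled list of candidates, from which the optimal set was drawn, held 4825 regions that meet the rule of position. Of these, 885 (18.3%) were in the optimal set, against 25.4% of all autosomal candidates, 24.1% of intronic and 37.5% of promoter candidates.

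The strongest intergenic peak lay on 3L, 4641 bp from the TSS of CG43245, ranked 17 among all autosomal optimal peaks, 17 in replicate 1 and 18 in replicate 3. A pair shared 1 gap of 5808 bp on 2L. Its first peak lay 3765 bp from CG31668 and ranked 22 (28 and 17 in replicates 1 and 3). Its second lay 1444 bp upstream of COX7AL2, a gene related to a cytochrome c oxidase subunit, and ranked 57 (55 in both replicates). All 15 strongest peaks ranked within the first 272 autosomal regions of each replicate.

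A peak 2639 bp upstream of kay, which encodes the Fos subunit of AP-1, ranked 47 (51 and 40 in replicates 1 and 3). This is the peak whose summit window carries the AP-1 element TGAGTCA. Weaker peaks lay 1978 and 3428 bp from the same TSS, at ranks 1928 and 2848, so that kay had 3 of the 885 peaks. Both replicates held all of them.

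Further down came CG13898 (rank 62), CG6168 (102), CheA75a of a chemosensory gene family (104), and CycB, the mitotic cyclin B (121). They were followed by Obp56h, an odorant-binding protein gene (124), and E(spl)malpha-BFM, a Bearded-family gene of Notch signalling (130). Next were spel1, a mismatch repair gene (149), Fbxl7, an F-box gene (155), lola, a BTB zinc finger transcription factor gene (177), CG11550 (178) and Achl (194). For CG6168, CheA75a, Obp56h and CG11550 the nearest TSS belonged to a non-coding RNA gene instead, and the protein-coding TSS lay 2751 to 16064 bp away. Among the 15, the ranks in the replicates differed most for lola, at 247 in replicate 1 and 140 in replicate 3, and for Achl, at 272 and 169.

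The bases under the summits were rich in A and T, with richer G and C to both sides. The windows within 50 bp of the 885 summits had 32.4% ± 7.11 G and C (SD over peaks), against 43.8% in flanking windows centred 500 bp away and 40.9% over all eligible sequence. The summit was lower than its flanks in 766 peaks (86.6%), against 83.1% of all autosomal peaks. The share was 84.8% for intronic, 79.8% for promoter and 90.9% for distal peaks. Over the 885 peaks the mean difference was −11.5 percentage points, −10.5 in replicate 1 and −11.5 in replicate 3 (−11.0 ± 0.68, SD, n = 2). Windows with at most 30% G and C made up 43.4% of the summits and 14.5% of eligible positions.

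The profile had shoulders. In windows of 51 bases, mean G and C was 32.1% at the summit and 46.8% at 300 bp before it, above the 42.5% found at 1500 bp. Intronic peaks had nearly the same shape, with 32.6% at the summit and 45.3% at 300 bp. Promoter peaks had a shallower and wider trough, with 34.97% at the summit, 39.8% at 150 bp before it, where intergenic peaks were already at 44.1%, and no shoulder at 300 bp.

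**Figure D2:**
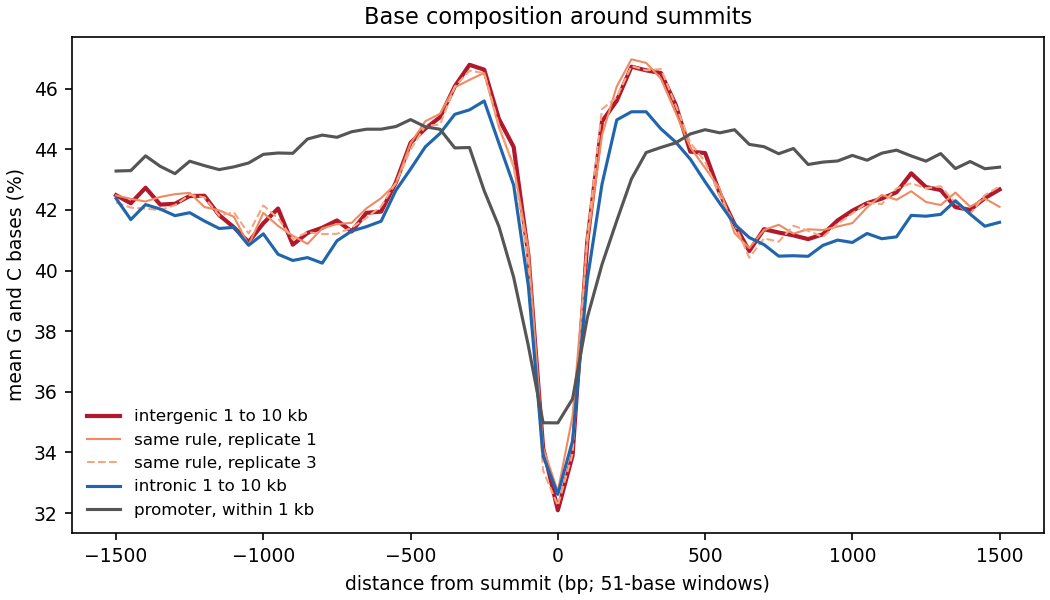
Mean share of G and C bases (vertical axis, %) in 51-base windows against distance from the summit (horizontal axis, bp) for intergenic peaks of the optimal set and of each replicate (red tones), intronic peaks (blue) and promoter peaks (grey). The intergenic curves fall to about 32% at the summit between shoulders near 47%, while the promoter curve falls less and over a wider stretch.

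The extended half-site of the NR5 family was not found at these summits. The 8-base element CAAGGTCA occurred within 50 bp of 0 of 885 summits, which allows a share of up to 0.339% (3 of 885 windows). It occurred in 0.16% of eligible positions, so a depletion or a modest excess was not detectable with this number of windows. The same rule gave 0.11% in replicate 1 and 0.24% in replicate 3, and 4 of the flanking windows of the 885 peaks held it (0.23%). Among the other classes it occurred in 0.38% of intronic, 0.35% of promoter and 0.75% of distal windows.

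The shorter half-site AGGTCA, which also lies inside that element, was in 13 windows (1.47%), with 1.96% and 1.78% in replicates 1 and 3. The flanking windows had it at 1.58% and eligible positions at 2.31%, or at 2.01% when eligible positions were weighted to the summits' own G and C content. Among the intergenic peaks in the 2962 autosomal regions of highest signal it was at 2.07%. That lies next to the share weighted to all 885 summits and below the unweighted 2.31%. Intronic summits held it at 2.32%, promoter summits at 1.97% and distal summits at 3.17%. The 13 peaks with it had a median rank of 2790, against 3310.5 for the 872 without. Besides Gr93b (rank 549), Sox21a (730) and Sf3b3 (1225) they included peaks near mid, a T-box transcription factor gene (1756), and hth, a homeobox gene (3201). The palindromic ecdysone element with a spacer of a single base (IR1), an exact 13-base match, occurred in 0 windows and at none of the eligible positions.

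Several A and T rich motifs were commoner at the summits than in eligible sequence, and the difference was smaller, gone or turned round once eligible positions were weighted to the summits' own G and C content. GATA elements were in 85 windows (9.60%, with 9.69% and 8.79% in replicates 1 and 3), against 4.35% of flanking windows and 5.58% of eligible positions. Weighted to the summits' G and C content, eligible positions held 8.23%. All autosomal summits held GATA elements at 8.20%, with 8.96% at intronic, 7.33% at promoter and 8.02% at distal summits. The A and T stretch TTTAAAA was in 115 windows (13.0%), against 6.55% of eligible positions and 12.9% with that weighting. Among all autosomal summits it was at 14.2%, with 14.6% at intronic summits. The homeodomain core TAATTA was in 9.15% of summits, against 7.98% of eligible positions but 11.96% with the weighting, so its direction turned.

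AP-1 elements were in 25 windows (2.82%, with 2.72% and 2.97% in replicates 1 and 3). Eligible positions held 1.83%, or 2.09% weighted, and flanking windows 1.98%. Among all autosomal summits the share was 2.78%, with 3.76% at intronic, 2.19% at promoter and 2.99% at distal summits. Besides kay (rank 47), the strongest peaks with one lay near Achl (194), CG5151 (1351), foxo, the transcription factor of the insulin pathway (1539), CG43815 (1652) and chinmo, a BTB zinc finger gene (2147).

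The DREF element TATCGATA, bound by a factor of housekeeping promoters, was in 1 of the 885 windows (0.11%), near Haspin. Eligible positions held it at 0.15% and promoter windows at 2.43%. The CGATA half-site of the insulator protein BEAF was in 9.94%, against 17.7% of promoter windows and 9.91% of eligible positions; it overlaps the DREF element and some GATA elements. E-boxes (CACGTG) were in 3 windows (0.34%, against 1.19% of eligible positions and 0.61% weighted), ETS elements (CCGGAA) in 12 (1.36%, against 2.78% and 1.45%), and CA repeats (CACACACA) in 5 (0.56%, against 2.25% and 1.08%). GAGA elements (GAGAGAG) were in 5 windows (0.56%, against 1.02% of eligible positions and 0.57% weighted). Grainyhead elements (AACNGGTT) were in 5 (0.56%, against 0.87% and 0.78%) and Zelda elements (CAGGTAG) in 3 (0.34%, against 0.41% and 0.28%). A match describes letters only, and a window without one says nothing about the factor.

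**Figure D3:**
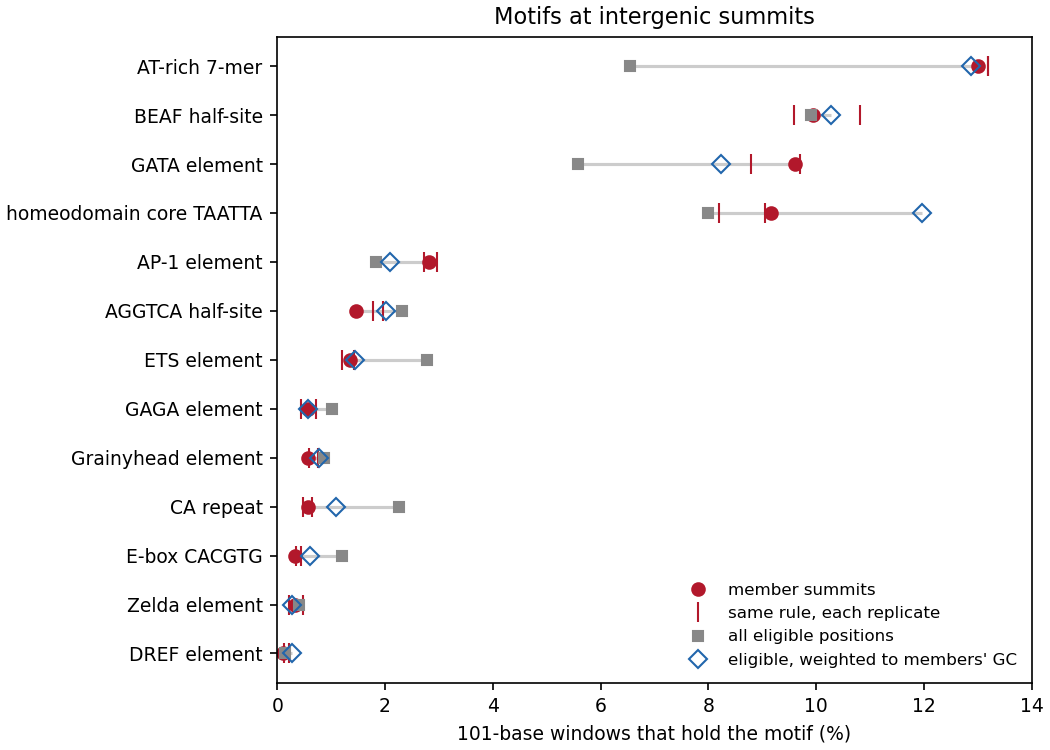
Share of windows (50 bp on each side) that hold each motif (horizontal axis, %) at intergenic summits (red circles; ticks for each replicate), at all eligible positions (grey squares) and at eligible positions weighted to the summits' G and C content (open diamonds). Weighting moves the eligible share of TTTAAAA to 12.9%, next to the 13.0% of summits, and leaves GATA at 8.23% against 9.60%. The NR5 and IR1 elements, with 0 windows, are not drawn.

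Counting all words of 7 bases gave 2 groups of letters that were not among the motifs listed above. Of the 1085 words present in at least 20 of the 885 windows, GTTACTA had the highest density relative to eligible sequence (4.47-fold, 22 windows), followed by AGTAGTA (3.98-fold, 21 windows). The 5 shared letters TACTA were in 218 windows (24.6%, with 23.3% and 25.1% in replicates 1 and 3). Flanking windows held TACTA at 7.12%, eligible positions at 9.82% and weighted eligible positions at 16.2%. Intronic summits had it at 18.4%, promoter summits at 18.3% and distal summits at 21.8%.

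Among the 56 words with at least 3 G or C bases the first were CACTGTA (3.37-fold, 20 windows), CAGTGCA (3.15-fold, 47 windows) and GCACTGA (2.86-fold, 31 windows), which share CACTG or its reverse complement. CAGTGCA was in 5.31% of summits (5.88% and 5.11% in replicates 1 and 3), against 1.86% of flanking windows, 1.77% of eligible positions and 1.32% of weighted ones. Intronic summits had it at 3.07%, promoter summits at 2.12% and distal summits at 4.48%. CACTG itself was in 21.2% of summits, against 15.2% of eligible positions and 10.9% of weighted ones, with 20.2% at intronic and 22.1% at promoter summits. These words were picked for their density, so their shares are a description and carry no test.

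The summit was upstream of the gene with the nearest TSS in 548 of 885 peaks (61.9%, with 60.2% and 62.1% in replicates 1 and 3), against 58.3% of eligible positions. Gaps between divergently transcribed genes held 56.1 peaks per Mb (56.55 and 52.95), tandem gaps 48.3 (49.1 and 46.3) and convergent gaps 49.3 (55.0 and 46.7). The replicate ranges of divergent and convergent gaps overlapped, and those of divergent and tandem gaps did not. Of 4000 gaps with eligible sequence, 501 held a peak, 303 of them just 1, and a gap with a peak had a median length of 9550 bp, against 2649 bp for one without.

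The nearest TSS belonged to a protein-coding gene for 540 peaks, to a non-coding RNA gene for 318 and to a tRNA gene for 24. Per Mb of eligible sequence nearest to such genes these were 46.6 (48.2 and 44.2 in replicates 1 and 3), 59.4 (61.8 and 57.0) and 117 peaks (122 and 102). The 24 peaks nearest to tRNA genes lay in 12 gaps only, and 8 of them flanked the isoleucine tRNA genes tRNA:Ile-TAT-1-1 and tRNA:Ile-TAT-1-2 in a single locus described below. The nearest protein-coding gene had a promoter peak for 243 of the 885 peaks (27.5%, with 25.5% and 28.5%), against 24.7% of all autosomal protein-coding genes and 54.6% of intronic peaks. The first is a share of peaks and the second a share of genes. With each of the 485 nearest genes counted once it was 125 genes (25.8%). Among intergenic peaks in the 2962 autosomal regions of highest signal it was 20.7%, with promoter peaks of those 2962 regions only. The 24.7% of all genes counts promoter peaks of the whole autosomal optimal set, so these shares cannot be compared. Another optimal summit lay within 5000 bp of 626 peaks (70.7%), against 69.6% of all autosomal peaks. Such a summit can lie in the same region or in an overlapping one.

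The peaks gathered at some loci. On 3L, the 95.7 kb between the outer ends of hng3 and Sf3b3 held 37 optimal peaks, of which 23 met the rule (24 and 22 in replicates 1 and 3). That is 490 per Mb of eligible sequence, against 50.2 overall. The stretch was chosen after its peaks were seen, so its high density is a description only. The strongest lay 1161 bp from CG13898 and ranked 62, with the same rank in replicate 1 and 63 in replicate 3. The next, 7.03 kb from the facing end of hng3, ranked 230 in the optimal set (228 and 230). Both replicates had a summit at 22 of the 23, and the exception, at rank 1396, was found in replicate 3 only. With 16 peaks nearest to it among protein-coding genes, hng3 led all genes.

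Another locus on 3L runs over 85.1 kb from hid to CheA75a and held 14 of the peaks (16 and 13 in replicates 1 and 3), all found in both replicates. Its strongest peak, rank 104, stood 50.4 kb from hid among non-coding RNA genes. Another, 5023 bp from the hid TSS, ranked 196 (253 and 173), and hid also had a promoter peak at 307 bp that ranked 131. The related apoptosis genes rpr and skl, further along the arm, had peaks of their own. Peaks 7688 and 4900 bp from rpr ranked 1672 and 5398, and one 16745 bp from skl, and 6058 bp from the nearest TSS of any gene, ranked 4967. The rpr peak at rank 1672 had a summit in replicate 3 only.

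**Figure D4:**
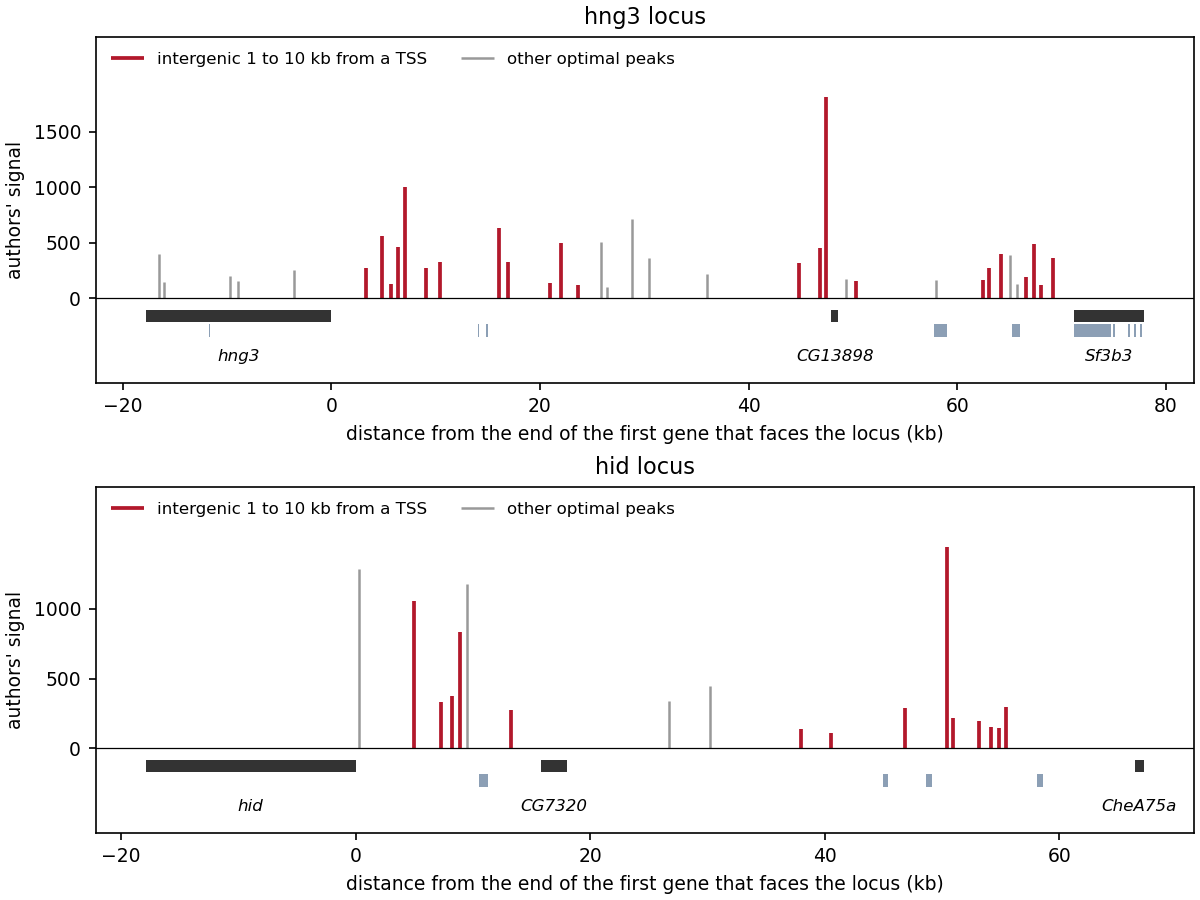
Signal of each optimal peak, as the authors gave it (vertical axis), against distance from the end of the first gene that faces the locus (horizontal axis, kb), for the hng3 locus (23 intergenic peaks, above) and the hid locus (14, below). Red lines are intergenic peaks at 1 to 10 kb from a TSS and grey lines other optimal peaks; black boxes are protein-coding genes and blue boxes other genes.

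Other gaps held many weaker peaks. The gap with the most lay between lncRNA:CR45036 and lncRNA:CR42755 on 3L, near CG6163, with 9 peaks in 16910 bp (13 and 8 in replicates 1 and 3) whose ranks ran between 1032 and 5488. Each summit was counted as a peak, also where regions overlap or are the same, so peaks are not always separate sites. In this gap the regions chr3L:11365790-11366038 and chr3L:11365921-11366316 overlap. A gap of 18664 bp next to CG18404 on 3R held 8, the strongest at rank 524, and a gap of 14004 bp next to Ids, a lysosomal iduronate sulfatase gene, held 7. In the Ids gap the region chr3L:3389665-3390014 was counted at more than 1 summit. The gaps on both sides of the isoleucine tRNA genes in the hng3 locus held 8 and 7. After hng3 the genes with most peaks were Ids with 9, Reg-2 and CG6163 with 8 each and CheA75a with 7. Of all 11749 autosomal protein-coding genes, 485 (4.13%) were nearest to at least 1 of the 885 peaks.

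Gene lists differed widely in the density of intergenic peaks around them. The lists were read against the 50.2 peaks per Mb of all eligible sequence, since genes in long gaps have more room for peaks. Zinc finger and bHLH regulators of development had 28 peaks at 11 of 34 genes, or 163 per Mb (145 in both replicates). Signalling ligands and targets had 23 peaks at 12 of 31 genes, or 149 per Mb (129 and 123 in replicates 1 and 3). Ecdysone-response factors had 4 peaks at 4 of 11 genes, or 157 per Mb (117 and 157), on 0.02555 Mb of eligible sequence. Homeobox and segmentation genes had 25 peaks at 12 of 48 genes and 69.2 per Mb (71.9 in both replicates). Some genes stand on more than 1 list, among them odd and Eip78C.

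Among the zinc finger and bHLH regulators on the list, which does not hold lola, noc had the strongest peak. It is a zinc finger gene of the head and appendages, and odd and drm of the odd-skipped family came next. A peak 4664 bp from the nearest TSS and 11921 bp from that of noc ranked 646 (662 and 633 in replicates 1 and 3), and noc had 3 more. The 4 peaks nearest to odd stood at ranks 939, 2758, 4537 and 5341, the strongest 12546 bp from the TSS of odd. A pair was nearest to drm (1318 and 2054, at 14386 and 13230 bp from its TSS) and a pair to sob of the same family (2492 and 4945). The spalt gene salr had 6 peaks at ranks 1018 to 5205, 19659 to 34434 bp from its own TSS. The pair-rule gene hry (hairy) had 6 at ranks 1640 to 5691, and the forkhead gene slp2 had 2 at 1618 and 3018.

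Among signalling genes, Wnt10, which encodes a Wnt ligand, had 1 peak at 5192 bp, rank 518 (564 and 490 in replicates 1 and 3). A peak 18542 bp from sty, the antagonist of receptor tyrosine kinase signalling, ranked 694 (656 and 751). The ligand gene hh had 3 at ranks 1574, 3136 and 3276. Ser, a Notch ligand gene, had 3 weaker ones at 4332 to 5537, and dpp, a BMP ligand gene, 2 at 3466 and 5694.

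Genes of the ecdysone response had few peaks in number, 4 at 4 of 11 genes, but on little sequence. Their density of 157 per Mb (117 and 157 in replicates 1 and 3) stood above the 50.2 of all eligible sequence. The 3 genes with the strongest peaks are given here. Eip93F had 1 at 7556 bp, rank 620 (504 and 783 in replicates 1 and 3). Blimp-1, an ecdysone-induced repressor, had 1 at 4311 bp, rank 2713 (2777 and 2748), and Eip78C, itself a nuclear receptor, 1 at 1801 bp, rank 3282 (2992 and 4039). Of the 19 nuclear receptor genes, the others with peaks were tll, with 2 at ranks 1766 and 2337, and kni, with 2 at 3479 and 4712. The list as a whole held 5 peaks, or 90.1 per Mb (108 and 90.1). Of 13 ecdysteroid metabolism genes only shd, whose P450 enzyme makes the active hormone, had peaks. They numbered 2, at ranks 3469 and 5335, and the weaker had no summit in replicate 3. The density of this list was 68.0 per Mb (68.0 and 34.0 in replicates 1 and 3).

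Cuticle protein, detoxification (cytochrome P450, GST and UGT), chemoreceptor and ribosomal protein genes had fewer peaks per Mb than the 50.2 of all eligible sequence, on small counts. These lists cover 0.125 to 0.419 Mb of eligible sequence each, so a few peaks weigh heavily, and the differences were not tested. Cuticle proteins had 5 peaks at 5 of 123 genes (35.6 per Mb, with 35.6 and 21.4 in replicates 1 and 3), led by Cpr76Ba at rank 1558, Cpr51A at 2135 and Cpr72Ea at 2351. Cytochrome P450, GST and UGT genes had 7 peaks at 3 of 137 (33.3 per Mb), of which Cyp12e1 held 5, while Cyp6a13 and Cyp4d21 held 1 each at ranks 4728 and 5554. Chemoreceptors had 12 peaks at 7 of 155 genes (28.6 per Mb, with 28.6 and 31.0), led by Gr93d at rank 263, Gr93b at 549 and Gr89a at 1688. Ribosomal protein genes, 53 of 78 of which had a promoter peak, had 1 intergenic peak (7.99 per Mb), near RpL22-like.

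The remaining lists held 0 to 5 peaks each. Cell death genes had 5 peaks at 3 of 14 genes (63.4 per Mb in the optimal set and in both replicates), those of hid, rpr and skl given above. Muscle genes had 1 peak each near Act87E (rank 1678) and sls (4042), or 69.5 per Mb in the optimal set, against 139 in each replicate. Salivary glue and Eig71E genes had 1 near Sgsf (2985), or 57.3 per Mb, against 115 and 57.3 in replicates 1 and 3. With so few peaks a single one moves these densities widely, as it does for the ecdysone-response, cuticle protein and ribosomal protein lists. Neuronal, immune effector and heat shock genes had 0 peaks on 0.0203 to 0.0325 Mb of eligible sequence each, where a replicate alone gave at most 1.

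**Figure D5:**
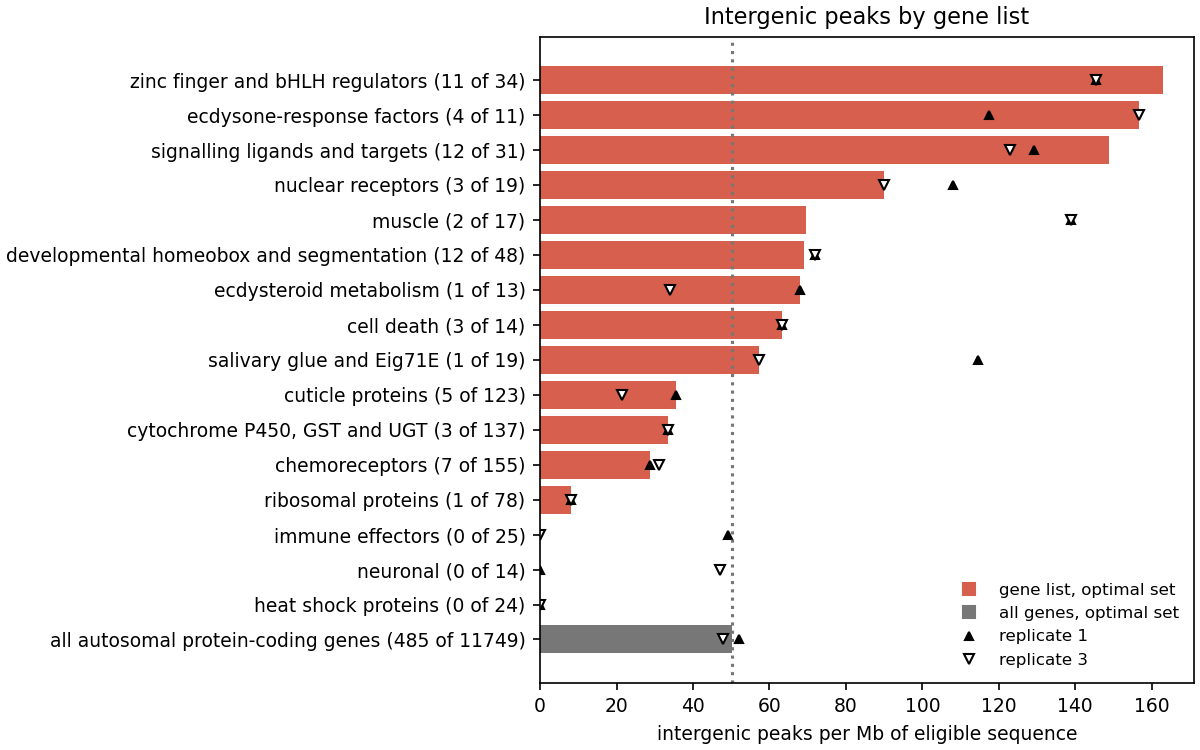
Intergenic peaks per Mb of eligible sequence nearest to the genes of each list (horizontal axis; bars, optimal set; triangles, each replicate), with the genes that had a peak out of those listed in brackets and all genes in grey at the bottom. Zinc finger and bHLH regulators, ecdysone-response factors and signalling genes lie at 149 to 163 per Mb, and ribosomal proteins at 7.99, against 50.2 for all genes.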

How the data were processed

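Chromatin of the replicates labelled 1 and 3 was sheared by sonication to sizes between 200 and 800, per the labels. The authors deposited, on dm6, a candidate list for each replicate, one for both pooled (28773 regions) and the optimal set, which is the 7444 regions of highest signal in the pooled list. The signal of each region, as deposited, was set by the authors and only ordered the regions inside each list. For the peak caller and aligner nothing is given in the sources used here, and depth is unknown.

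Summits, TSSs and gene bodies (Ensembl 115, without transposable elements) were joined in Python 3.11.15 with numpy 2.4.6, pandas 2.3.3 and matplotlib 3.10.9, after a check on simulated data. Densities and motif shares were set against every eligible autosomal position. The weighting by G and C content was added after motif shares were seen. Counts, densities, motif shares and the G and C difference were recomputed in the 5925 highest-signal autosomal regions of each replicate list.

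The peaks, lists and motifs were chosen with earlier results of these data known. Named genes follow a rule of the 15 strongest peaks, up to 3 genes per list and the 5 gaps with most peaks. Other names (hng3, Sf3b3, sob, hry, Ser, dpp and those of motif holders) were chosen after their values were seen. Cpr and Cyp40, which only share a prefix with a family, were removed by name. In 3 cases, hairy (hry) among them, a list name was replaced by the annotation's symbol.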

Additional observations from a re-analysis of the deposited data

How the results depend on the processing

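The G and C difference stayed negative under every alternative run for it. Leaving out a replicate meant using the list of the other alone, so the values are those of each replicate list and no separate check. The counts were 842 and 918, the densities 47.8 and 52.1 per Mb, and the G and C difference between −10.5 and −11.5 points. The AGGTCA share lay between 1.78% and 1.96% and the upstream share between 60.2% and 62.1%. The neighbour share was 68.7% to 68.8% and the signal rank 55.1% to 56.5%. The 2962 autosomal optimal peaks with the highest signal held 387 of the peaks (22.0 per Mb). AGGTCA was in 2.07% of these. The eligible share was 2.01% when weighted to all the intergenic peaks and 2.31% unweighted. The nearest gene had a promoter peak for 20.7% and a neighbour lay within 5000 bp for 56.3%, both counted among the 2962 peaks only. The 20.7% is therefore not comparable with the 24.7% of all genes. Both replicates supported 97.4% of the 387. At 1 to 5 kb from a TSS the G and C difference was −10.7 points, the upstream share 67.4%, the neighbour share 70.3% and the signal rank 53.8%. With protein-coding genes only these were −10.7, 66.4% and 71.2%, and 30.1% had a promoter peak at the nearest gene. Flanks at 1000 bp gave −9.30 points, AGGTCA within 100 bp 3.05%, and neighbours within 2000 bp 49.3%. Support in both replicates was 83.1% within 50 bp, 98.6% within 200 bp and 79.7% in the top regions of each replicate list. The causes of these shifts were not tested, apart from those built into the alternative, such as a wider window or a shorter list. Restricting summits and sequence to bases that the reference does not mask as repeats, an alternative chosen after seeing the data, gave 50.7 per Mb. No paired analysis was possible because the samples form 1 group. An SD over 2 lists has little precision, and some of these shifts pass it only because it is small.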
